A study of Arabidopsis thaliana with 2 samples.

Results

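WRKY transcription factors are a plant family of DNA-binding proteins named after a conserved stretch of amino acids in their DNA-binding domain. The study's table of expression values held 36 of the 58 WRKY genes of Arabidopsis thaliana in the family list used here, among 11666 genes in all. The members were chosen by gene identifier. Because the family was proposed with its values in both libraries already in view, every difference below is a description and none is a test. RNA-seq had been carried out on whole seedlings grown for 12 days on sucrose-containing medium under long days, with 1 wild-type library and 1 library of ago1-36 seedlings, which carry a mutant allele of ARGONAUTE1 (AGO1), whose protein loads microRNAs and guides them to target transcripts. The labels state neither how many seedlings were pooled nor any treatment beyond growth. Each genotype is 1 library, so no difference could be checked against replicates, and higher and lower describe this pair of libraries alone. In whole seedlings, fewer cells of a type and less RNA per cell cannot be told apart.

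WRKY proteins bind the W-box, a short DNA element with the letters TTGACC or TTGACT, and many WRKY genes carry W-boxes themselves, so that members can act on each other and on their own promoters. The family is best known for its part in immunity to microbes, where mitogen-activated protein kinases (MAP kinases) phosphorylate some members, and in salicylate and jasmonate signalling, leaf senescence and nutrient stress. It is divided by the number of WRKY domains and the type of zinc finger into group I with 2 domains, group II with subgroups IIa to IIe, and group III. Some members raise and others restrain defence, so a higher transcript level of the family has no single known outcome.

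AGO1 (AT1G48410) stood at 48.6 RPKM (reads scaled to gene length and to library size) in the wild type against 5.59 RPKM in ago1-36, 8.70-fold lower in the mutant with a 95% counting interval from 7.66 to 9.89, which goes with the labels. Library totals were about 13670000 reads for wild-type and 13590000 for ago1-36. Markers of leaf mesophyll were all present, with summed levels of 24370 RPKM in wild-type and 10976 in ago1-36 over 8 of 8 listed genes. Counting intervals throughout are exact Clopper-Pearson intervals on reads recovered from the table, and they cover counting error only. Whole-table counts refer to listed genes. That table holds few genes of slightly higher level in ago1-36, with 38 kept genes whose log2 ratio fell between 0.1 and 0.3 and 1381 between -0.3 and -0.1.

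Most WRKY genes that could be compared had more RNA in the ago1-36 library. Of the 36 listed members, 34 reached 1 RPKM in at least 1 library and were kept, and 30 of these had a higher level in ago1-36 while 4 had a lower one, beside 5521 higher and 5852 lower of all 11373 kept genes. On the log2 scale of RPKM plus 1, on which low genes differ by less than their plain ratios, 23 of the 34 were at least 2-fold higher in ago1-36, against 19.6% of all 11373 kept genes, and 0 were at least 2-fold lower, against 8.38%. At least 4-fold higher were 13 members, against 6.14% of kept genes, and at least 16-fold higher were 7, against 0.633%. At those marks 0 members were lower, where 1.43% and 0.0967% of kept genes were. The median log2 ratio was 1.71 over the 34 kept members, beside -0.04 over all kept genes. It was 1.72 with WRKY51, at 0 reads in wild-type, set at a floor of 3 reads there. WRKY51 and WRKY28 passed the filter through their ago1-36 value alone and so had to be higher. WRKY69 and WRKY51 lay just inside the 2-fold mark, at log2 ratios of 1.13 and 1.1, and WRKY47 and WRKY23 just outside it at 0.87 and 0.84.

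Other ways of calling gave nearly the same count of members. With pseudocounts of 0.1 and 0.5, 23 members were higher, where 23.5% and 21.7% of kept genes were, and 1 and 0 were lower, where 11.5% and 10.1% were. By the authors' deposited table, 23 members had a log2 fold change of at least 1, against 19.8%, and 2 of at most -1 (WRKY14 and WRKY44), against 15.7%, while a GFOLD score of that size was reached upwards by 19 members, against 12.2%, and downwards by 0, against 7.54%. Rescaling the libraries by the median of ratios left 23 members higher, against 20.9%, and 0 lower, against 7.56%. Without a filter 23 of 36 members were higher, against 19.1%, and 0 lower, against 8.17%. A filter of 5 RPKM left 22 of 30 higher, against 19.1%, and 0 lower, against 7.93%. Among genes with no listed overlap, 20 of 30 members were higher, against 20.1%, and 0 lower, against 8.49%.

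**Figure D1:**
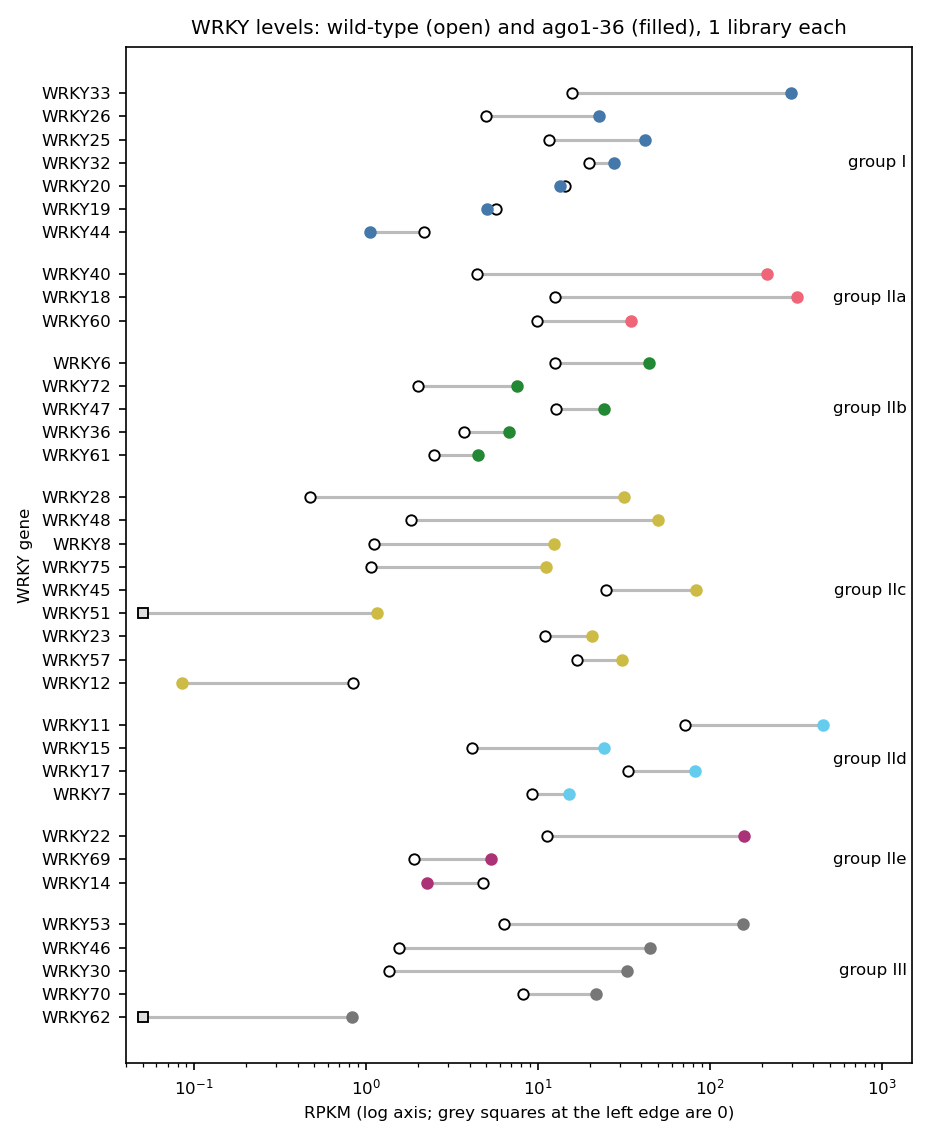
Level of each of the 36 listed WRKY genes, in RPKM on a log axis, in the wild-type library (open circles) and the ago1-36 library (filled circles), ordered by structural group and within it by log2 ratio. Grey squares at the left edge mark WRKY51 and WRKY62, at 0 in wild-type, and the filled circle lies to the right of the open one for all but WRKY20, WRKY19, WRKY44, WRKY12 and WRKY14.

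The remaining 22 members were not analysed here for expression. Among the 11666 listed genes 0 had a GFOLD score of 0, so the table may favour genes that differed, and members without a clear difference may be among the 22. All counts and shares, those of the family and of all genes, describe listed genes only. The 22 members include WRKY1, WRKY2, WRKY3 and WRKY4 of group I, and WRKY9, WRKY31 and WRKY42 of group IIb. WRKY13 and WRKY50 of group IIc and WRKY21, WRKY39 and WRKY74 of group IId also belong to the 22. The rest are WRKY16, WRKY27, WRKY29, WRKY35 and WRKY65 of group IIe, and WRKY38, WRKY41, WRKY52, WRKY54 and WRKY55 of group III. No statement below covers the expression of these genes, among them WRKY29, known as a flagellin-responsive factor, and WRKY52 (RRS1), an immune receptor fused to a WRKY domain.

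The summed level of the listed family members was 347 RPKM in the wild type against 2304 RPKM in the mutant, 6.65-fold higher. These sums were 0.0637% and 0.429% of all RPKM in the table. In wild-type 1 member exceeded 50 RPKM and 0 exceeded 100 RPKM, whereas the numbers in ago1-36 were 8 above 50, 6 above 100 and 4 above 200 RPKM. WRKY11 was the most abundant member in both libraries, at 20.8% of the family sum in wild-type and 19.8% in ago1-36. Below it the order changed. WRKY17, WRKY45, WRKY32 and WRKY57 followed in wild-type, while WRKY18, WRKY33, WRKY40 and WRKY22 followed in ago1-36, and 5 members were among the 10 most abundant of both. Without WRKY33 and WRKY11 the summed level was 6.0-fold higher, so the difference of the sum did not rest on this pair. The sum was unevenly shared, with the 5 most abundant members of each library holding 48.1% in wild-type and 62.7% in ago1-36.

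**Figure D2:**
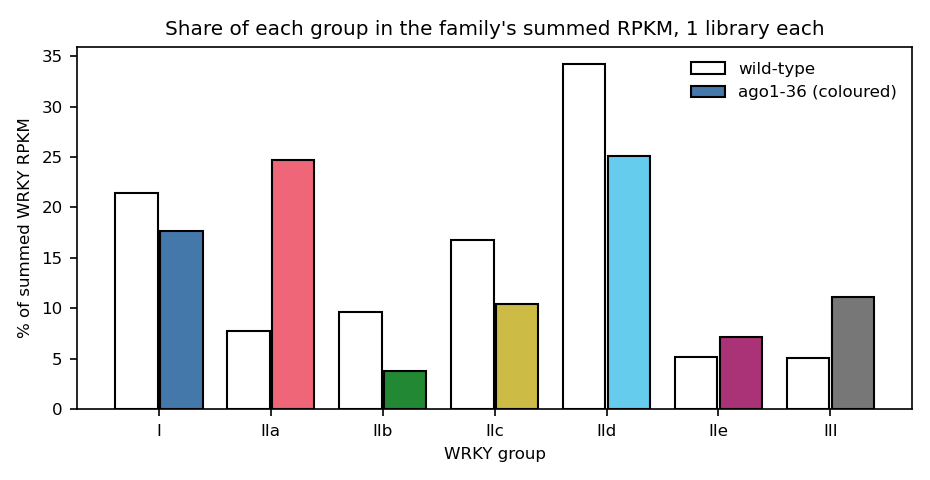
Share of each structural group in the summed RPKM of the 36 listed WRKY genes, in percent, for the wild-type library (white bars) and the ago1-36 library (coloured bars). Group IIa went from 7.73% to 24.7% and group III from 5.04% to 11.1%, while group IId went from 34.2% to 25.1% and group IIb from 9.66% to 3.78%.

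Group I, with 2 WRKY domains, was split. At least 2-fold higher in ago1-36 were 3 of the 7 kept members, 4 lay under 2-fold in either direction, and the median log2 ratio was 0.47. Of all kept genes 19.6% were at least 2-fold higher and 8.38% at least 2-fold lower. WRKY33 (AT2G38470), a substrate of the immune MAP kinases and an activator of camalexin synthesis needed for resistance to grey mould, had 15.7 RPKM in the wild type against 294.6 RPKM in the mutant. It was 18.8-fold higher, with a counting interval from 17.0 to 20.8. The gene lies on chromosome 2 from 16108235 to 16110766 on the forward strand (TAIR10.1) and shares 26 bases with the listed gene AT2G38480 of the opposite strand, which had 5.76 and 3.64 RPKM and was thus lower in ago1-36. The 250 bases before its annotated start are shown because they hold 2 W-box matches, in capitals, at positions -96 and -32 from the start. Both lie on the reverse strand and are read here as AGTCAA or GGTCAA.
WRKY33, chr2:16107985-16108234, forward strand: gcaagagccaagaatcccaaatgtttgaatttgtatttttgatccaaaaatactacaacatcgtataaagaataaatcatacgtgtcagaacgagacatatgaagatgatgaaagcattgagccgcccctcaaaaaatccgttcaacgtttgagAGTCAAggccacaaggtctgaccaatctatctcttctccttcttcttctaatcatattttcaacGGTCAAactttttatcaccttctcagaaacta
WRKY25 (AT2G30250) and WRKY26 (AT5G07100) act with WRKY33 in heat tolerance, and both were higher in ago1-36 by smaller factors. WRKY25 had 11.6 RPKM in the wild type against 41.8 RPKM in the mutant, 3.62-fold higher (counting interval 3.14 to 4.17). For WRKY26 the values were 4.98 and 22.6 RPKM, 4.54-fold higher (counting interval 3.62 to 5.74). The other 4 members of group I were close to level or lower in ago1-36. WRKY32 (AT4G30935) had 19.8 and 27.8 RPKM, a log2 ratio of 0.47. WRKY20 (AT4G26640) had 14.4 RPKM in the wild type against 13.4 RPKM in the mutant, and WRKY19 (AT4G12020), which carries immune receptor and kinase domains beside its WRKY domain, had 5.67 and 5.07 RPKM and shares 50 bases with AT4G12010 of the opposite strand. The counting intervals of WRKY19 and WRKY20 included equal levels, the only ones among the 36 members to do so. The share of all listed genes with such an interval is not given here, and the table may favour genes that differed. WRKY44 (TTG2, AT2G37260), a regulator of trichome and seed coat development, had 2.17 RPKM in the wild type against 1.05 RPKM in the mutant from 54 and 26 reads. Its plain RPKM ratio was 2.06-fold lower (counting interval 1.27 to 3.43), while its log2 ratio with 1 added was -0.63.

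Group IIa held the pair of genes with the highest log2 ratios of the family on the scale of RPKM plus 1. Its members WRKY18 (AT4G31800), WRKY40 (AT1G80840) and WRKY60 (AT2G25000) form complexes with each other and are known as pathogen-induced, partly redundant modulators of basal immunity and abscisic acid responses. WRKY40 had 4.41 RPKM in the wild type against 215 RPKM in the mutant. It was 48.7-fold higher (counting interval 38.6 to 62.4) and ranked 9 of 11373 kept genes by log2 ratio. WRKY18 had 12.5 and 320.4 RPKM, 25.6-fold higher (counting interval 22.3 to 29.5). The lead of this pair depended on the scale. WRKY28 stood above WRKY40 with a pseudocount of 0.1 (5.79 against 5.58) and by the deposited log2 fold change (5.71 against 5.40). In both of these settings WRKY46 and WRKY48 also stood above WRKY18. WRKY60, the third partner, had 9.86 and 34.6 RPKM, 3.51-fold higher (counting interval 2.94 to 4.20), so its interval lay wholly below those of the other two. In wild-type the order of levels was WRKY18, WRKY60, WRKY40, and in ago1-36 it was WRKY18, WRKY40, WRKY60. Within 250 bases of their starts 0 of the 3 genes held a W-box match, but each held 2 or 3 matches packed within 12 to 22 bases farther upstream. These stretches are shown with the matches in capitals and 20 bases on either side, from the TAIR10.1 genome, all on the forward strand.
WRKY40, chr1:30382728-30382779, matches at -813 and -807: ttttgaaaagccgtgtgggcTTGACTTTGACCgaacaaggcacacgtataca
WRKY18, chr4:15382021-15382082, matches from -736 to -720: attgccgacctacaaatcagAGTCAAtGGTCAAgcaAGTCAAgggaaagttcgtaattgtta
WRKY60, chr2:10629005-10629063, matches from -637 to -624: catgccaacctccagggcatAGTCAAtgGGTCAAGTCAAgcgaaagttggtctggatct
In WRKY40 the elements abut in the forward direction, TTGACT then TTGACC. In WRKY18 and WRKY60 they run on the reverse strand, and the last pair of WRKY60 overlap by 1 base. Runs of 2 or more matches whose starts lie within 20 bases were sought in the 1000 bases before each gene. Such a run was present before 4.10% of all 27443 nuclear protein-coding genes and before 7 of the 58 WRKY genes (12.07%). Among kept genes with an upstream window, it was present before 8.302% of those at least 2-fold higher in ago1-36. The share was 10.98% for those at least 4-fold higher, close to that of the WRKY genes. It was 3.941% for kept genes between the 2-fold marks and 2.497% for those at least 2-fold lower. The run was defined after the positions had been seen.

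Group IIb was the group with the narrowest spread, with log2 ratios from 0.65 to 1.74 in 5 kept members. WRKY6 (AT1G62300), which takes part in senescence and represses the phosphate exporter gene PHO1, had 12.6 RPKM in the wild type against 44.2 RPKM in the mutant, 3.52-fold higher (counting interval 3.11 to 3.98). WRKY72 (AT5G15130), which contributes to basal defence, had 2.0 and 7.58 RPKM, 3.80-fold higher (counting interval 2.79 to 5.24). The other three stayed under 2-fold. WRKY47 (AT4G01720) had 12.7 and 24.1 RPKM, WRKY36 (AT1G69810) had 3.70 and 6.81 RPKM, and WRKY61 (AT1G18860) had 2.50 and 4.47 RPKM. All 5 were higher in ago1-36, beside 5521 higher and 5852 lower of all 11373 kept genes. Each counting interval excluded equal levels, but the share of all listed genes for which this held is not given here.

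Group IIc ranged in wild-type level from 0 to 24.8 RPKM. Past 2-fold in ago1-36 were 6 of its 8 kept members, all higher, where 19.6% of all kept genes were at least 2-fold higher. Its median log2 ratio was 2.14, or 2.22 with WRKY51 (AT5G64810) at the floor of 3 reads in wild-type. Of the 6, WRKY28 and WRKY51 passed the filter through their ago1-36 value alone and so had to be higher. WRKY28 (AT4G18170), an activator of the salicylate synthesis gene ICS1, had 0.471 RPKM in the wild type against 31.5 RPKM in the mutant. From 8 and about 532 reads it was 66.9-fold higher, the highest plain ratio of the family, with a counting interval from 33.7 to 156. The window before WRKY28 is shown because it holds a forward W-box at -209.
WRKY28, chr4:10060964-10061213, forward strand: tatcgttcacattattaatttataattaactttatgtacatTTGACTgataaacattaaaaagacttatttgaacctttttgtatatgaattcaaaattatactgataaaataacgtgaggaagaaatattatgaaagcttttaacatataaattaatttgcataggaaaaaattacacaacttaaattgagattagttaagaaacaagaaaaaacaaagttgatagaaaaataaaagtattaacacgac
WRKY48 (AT5G49520), a negative regulator of resistance to bacteria, had 1.84 and 49.9 RPKM, 27.2-fold higher (counting interval 20.2 to 37.5). WRKY8 (AT5G46350), needed for full resistance to grey mould, had 1.12 and 12.4 RPKM, 11.1-fold higher (counting interval 6.99 to 18.5). WRKY75 (AT5G13080), a factor of phosphate starvation and senescence, had 1.06 and 11.2 RPKM, 10.5-fold higher (counting interval 5.66 to 21.7). These 4 genes were nearly silent in wild-type, at under 2 RPKM each, and all exceeded 10 RPKM in ago1-36. WRKY45 (AT3G01970), an activator of the phosphate transporter gene PHT1;1 and close relative of WRKY75, was different in that it was already at 24.8 RPKM in wild-type, with 83.5 RPKM in ago1-36, 3.36-fold higher (counting interval 2.96 to 3.84). WRKY23 (AT2G47260), which acts in auxin-dependent root growth, had 11 and 20.5 RPKM, and WRKY57 (AT1G69310), linked to drought tolerance, had 17.0 and 31.0 RPKM. WRKY51, which takes part in salicylate repression of jasmonate signalling, had 0 reads in the wild type against 11 in the mutant (1.15 RPKM). With a floor of 3 reads in place of its 0, it was 3.69-fold higher, and the lower counting limit was 2.52-fold. WRKY12 (AT2G44745), a repressor of secondary wall formation in stem pith, fell below the filter with 10 reads in the wild type against 1 in the mutant, a ratio of 9.94-fold lower with a counting interval from 1.41 to 431.

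Group IId, whose proteins bind calmodulin, held the most abundant member. WRKY11 (AT4G31550) and WRKY17 (AT2G24570) are partly redundant negative regulators of basal resistance to Pseudomonas bacteria. WRKY11 had 71.9 RPKM in the wild type against 457 RPKM in the mutant, 6.35-fold higher (counting interval 5.97 to 6.77). WRKY17, second in wild-type at 33.2 RPKM, had 82.4 RPKM in ago1-36, 2.48-fold higher (counting interval 2.26 to 2.73). The intervals of this pair did not overlap. WRKY15 (AT2G23320), which acts in growth and osmotic stress, had 4.14 and 24.2 RPKM, 5.85-fold higher (counting interval 4.53 to 7.65), and WRKY7 (AT4G24240) had 9.18 and 15.1 RPKM, under 2-fold. WRKY11 lies on the reverse strand of chromosome 4 from 15289788 to 15291934. Its window is shown, in the direction of the gene, with 1 match at -106, while 5 matches lie in its 1000 upstream bases and 7 in those of WRKY17, the most of any member.
WRKY11, chr4:15291935-15292184, reverse strand: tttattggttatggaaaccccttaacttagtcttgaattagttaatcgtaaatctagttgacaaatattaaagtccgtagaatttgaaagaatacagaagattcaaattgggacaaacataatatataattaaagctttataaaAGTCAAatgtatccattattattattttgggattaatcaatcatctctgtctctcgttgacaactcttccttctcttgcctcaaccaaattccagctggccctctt

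Group IIe was represented by 3 genes. WRKY22 (AT4G01250), which acts below MAP kinases in flagellin signalling and in dark-induced senescence, had 11.3 RPKM in the wild type against 158 RPKM in the mutant, 14.0-fold higher (counting interval 12.0 to 16.3). WRKY69 (AT3G58710) had 1.90 and 5.35 RPKM, 2.82-fold higher (counting interval 1.84 to 4.43), but it shares 373 bases with the listed gene AT3G58720 on the opposite strand, at 12.1 and 6.99 RPKM, and its reads cannot be told apart from those of that gene in the shared stretch. WRKY14 (AT1G30650) was lower in ago1-36, with 4.78 and 2.25 RPKM from 126 and 59 reads. By plain RPKM ratio it was 2.12-fold lower (counting interval 1.55 to 2.94), and its log2 ratio with 1 added, -0.83, was the lowest among kept members. Its upstream window, shown as that of the kept member with the lowest ratio, holds 0 W-box matches, as do its 1000 upstream bases. The same held for WRKY70 and WRKY57, which were higher in ago1-36, and WRKY22 had 0 matches within 250 bases while being 14.0-fold higher.
WRKY14, chr1:10867968-10868217, forward strand: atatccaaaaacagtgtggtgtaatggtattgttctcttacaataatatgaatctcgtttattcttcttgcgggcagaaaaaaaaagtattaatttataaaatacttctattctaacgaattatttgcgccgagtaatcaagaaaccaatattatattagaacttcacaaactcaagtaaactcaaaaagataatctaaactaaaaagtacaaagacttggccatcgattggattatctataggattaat

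Group III is defined by a different zinc finger and holds salicylate- and senescence-related members. Its 4 kept members all passed 2-fold, and 3 of them 4-fold, towards higher levels in ago1-36, and their median log2 ratio was 4.01. Of all kept genes 19.6% were at least 2-fold and 6.14% at least 4-fold higher. Only 5 of the 10 members of this group were listed. WRKY53 (AT4G23810), a positive regulator of leaf senescence, had 6.33 RPKM in the wild type against 156 RPKM in the mutant, 24.6-fold higher (counting interval 20.7 to 29.6). It shares 341 bases with the opposite-strand gene AT4G23800, which had 40.2 and 63.5 RPKM, so part of its reads may belong there. WRKY46 (AT2G46400), which acts in salicylate and osmotic stress responses, had 1.56 and 44.7 RPKM, 28.7-fold higher (counting interval 19.5 to 44.3). WRKY30 (AT5G24110), which responds to oxidative stress, had 1.36 and 33.0 RPKM, 24.3-fold higher (counting interval 16.1 to 38.2). The intervals of these 3 genes overlapped, so their ratios were not told apart at this depth. WRKY70 (AT3G56400), which favours salicylate over jasmonate responses and restrains senescence, stood lower at 8.23 and 21.8 RPKM, 2.65-fold higher (counting interval 2.15 to 3.28), and had 0 W-box matches in its 1000 upstream bases. WRKY62 (AT5G01900), a salicylate-induced restrainer of basal defence, had 0 and 11 reads and 0.829 RPKM in ago1-36, under the filter. With the floor of 3 reads in wild-type WRKY62 was 3.69-fold higher, and the lower counting limit was 2.52-fold. The window of WRKY53 holds 2 matches, at -219 on the strand of the gene and at -71 on the other. WRKY30 holds 3 within 250 bases, the most of any member, and the stretch around its packed pair follows that window.
WRKY53, chr4:12393983-12394232, reverse strand: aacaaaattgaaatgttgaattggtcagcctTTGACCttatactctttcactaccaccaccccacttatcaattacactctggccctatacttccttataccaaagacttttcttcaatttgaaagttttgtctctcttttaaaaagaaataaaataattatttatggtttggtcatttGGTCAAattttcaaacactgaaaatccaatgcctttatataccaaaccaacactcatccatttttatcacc
WRKY30, chr5:8154746-8154799, reverse strand, matches at -69 and -61: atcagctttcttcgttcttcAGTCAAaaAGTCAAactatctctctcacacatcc

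**Figure D3:**
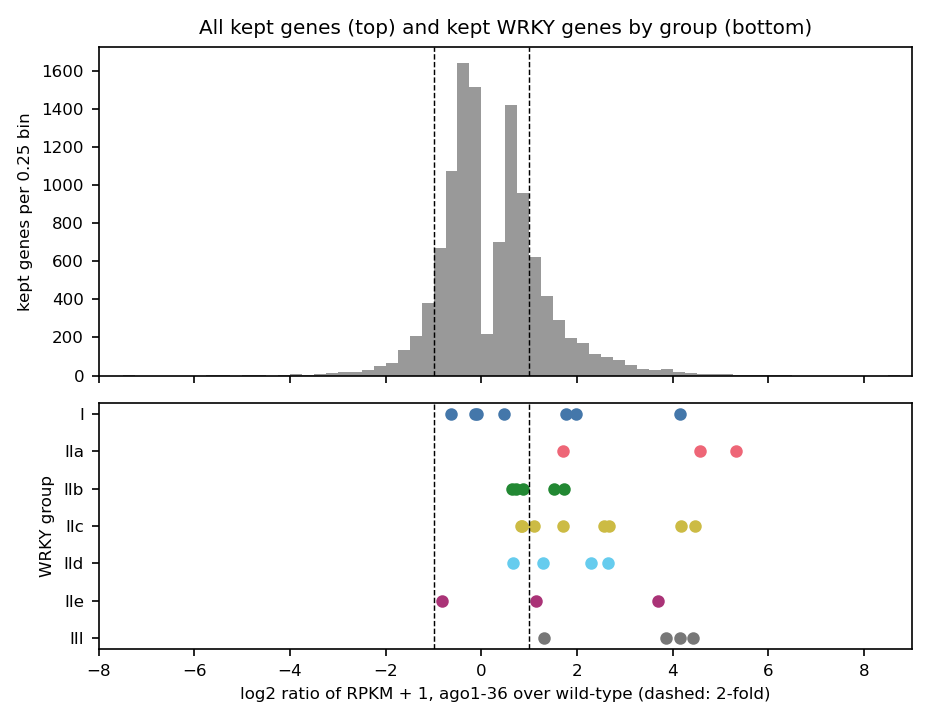
Distribution of the log2 ratio of RPKM plus 1, ago1-36 over wild-type, over 11373 kept genes in bins of 0.25 (top), and the ratio of each of the 34 kept WRKY genes by structural group (bottom). Dashed lines mark 2-fold: 23 WRKY genes lie beyond the right line and 0 beyond the left, and the dip near 0 shows the scarcity of listed genes with slightly higher level in ago1-36.

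Ranked among all kept genes, 13 members lay at or above percentile 95 of the log2 ratio, 8 were among the 100 highest genes, and 30 lay at or above percentile 50. Those 8 were WRKY40, WRKY18, WRKY28, WRKY53, WRKY48, WRKY46, WRKY33 and WRKY30, from 4 of the 7 structural groups. Low and well-expressed members both had higher levels in ago1-36. The median log2 ratio was 2.14 for 16 kept members under 5 RPKM in wild-type and 1.51 for the 18 at 5 RPKM or more, beside 0.81 and -0.14 for all kept genes split in the same way, a split that itself favours higher ratios in the low class.

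W-box letters stood before most listed WRKY genes, with the comparison to all genes given as shares and no test. Searching both strands for TTGACC and TTGACT in the 250 bases before the annotated start, a match was found for 18 of the 36 listed members (50%), for 5 of the 22 members not analysed for expression (22.7%), and for 28.4% of all 27443 nuclear protein-coding genes. At least 2 matches were held by 8 listed members (22.2%), against 6.18% of all genes. In the 1000 upstream bases 33 of the 36 listed members (91.7%) had a match, against 67.3% of all genes. Among kept members, a match within 250 bases was found in 7 of the 13 that were at least 4-fold higher, 5 of the 10 between 2-fold and 4-fold higher, and 4 of the 11 under 2-fold. WRKY40, WRKY18, WRKY48, WRKY46, WRKY22 and WRKY8, all at least 4-fold higher, had no match in that window, though each had at least 1 within 1000 bases. Across the kept genes of the table with an upstream window, the share with a match within 250 bases was 43.6% of 683 genes at least 4-fold higher, 38.6% of 2156 at least 2-fold higher, 27.8% of 7943 between and 22.8% of 921 at least 2-fold lower. These are matches of letters and not shown binding sites, and annotated starts can differ from those used in seedlings.

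**Figure D4:**
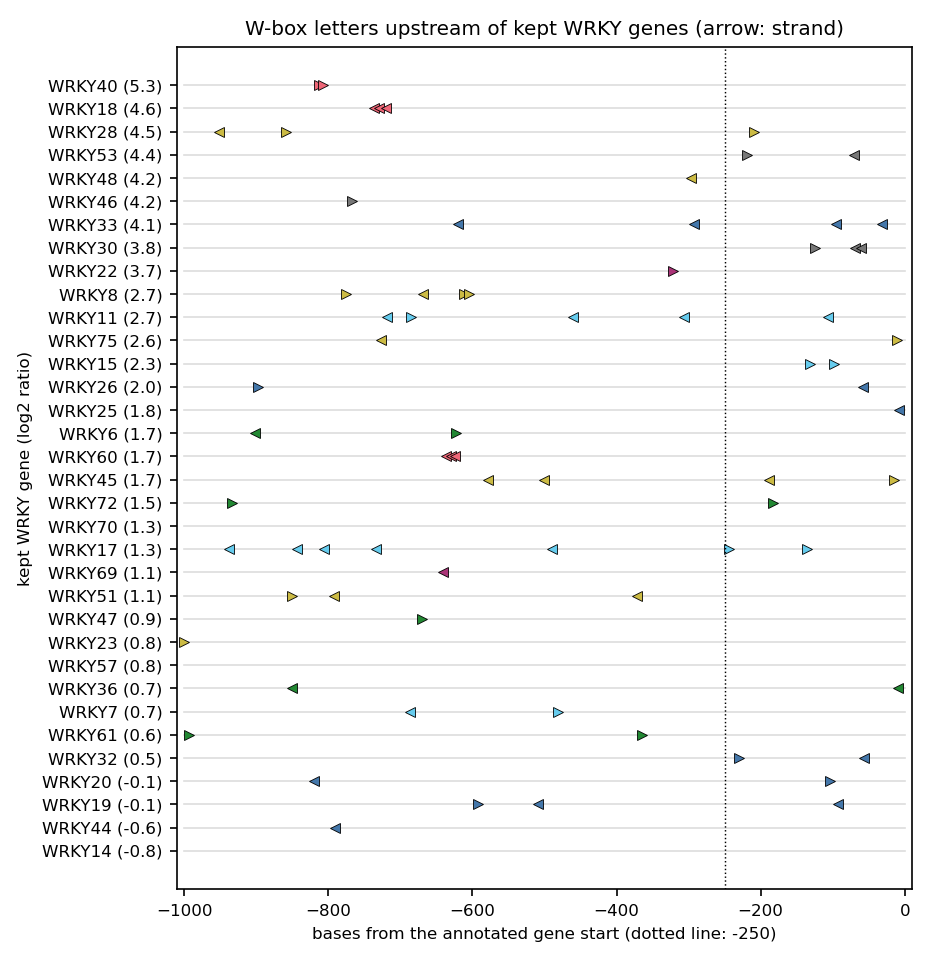
Positions of W-box letters (TTGACC or TTGACT, arrowheads pointing right on the strand of the gene and left on the other) in the 1000 bases before the annotated start of each kept WRKY gene, ordered by log2 ratio, which stands beside each name. The dotted line lies 250 bases upstream; the packed matches of WRKY40, WRKY18 and WRKY60 lie between -813 and -624, and WRKY70, WRKY57 and WRKY14 have none.

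Kinases of the cascades known to act on WRKY proteins were compared beside the family. Of 14 such genes of the MAP kinase and calcium-dependent kinase cascades, 11 were listed and kept, all with a higher level in ago1-36, and 6 were at least 2-fold higher (median log2 ratio 1.23, beside the 19.6% and -0.04 of all kept genes). MPK3, which phosphorylates WRKY33, had 11.8 RPKM in the wild type against 65.2 RPKM in the mutant, 5.51-fold higher (counting interval 4.8 to 6.35). MPK11 had 2 and 167 reads, 84.0-fold higher with a wide counting interval from 22.9 to 699. Alone among the 11 kept kinases, MPK11 passed the filter only through its ago1-36 value and so had to be higher. MKK9, a MAP kinase kinase, had 1.47 and 7.16 RPKM, 4.86-fold higher (counting interval 3.24 to 7.52). MPK4, which holds WRKY33 in a complex with MKS1, stayed under 2-fold at 13.4 and 21.3 RPKM, and it overlaps the listed gene AT4G01390. MPK6, MKK1 and MKK2 were not analysed here.

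VQ proteins are small partners that bind WRKY domains through a short motif. Of 26 VQ genes, 14 were listed and kept. In ago1-36, 9 of them were at least 2-fold higher and 0 at least 2-fold lower, against 19.6% and 8.38% of all kept genes. Their median log2 ratio was 1.86. Of the 14, 3 passed the filter through their ago1-36 value alone, AT2G42140 among them, and so had to be higher. AT2G22880 had 5 reads in the wild type against 114 in the mutant, 22.9-fold higher (counting interval 9.55 to 72.0). AT3G56880 had 11.6 and 82.5 RPKM, 7.14-fold higher (counting interval 6.07 to 8.46), and AT2G42140 had 2 and 52 reads, 26.2-fold higher (counting interval 6.89 to 222). MKS1, which links WRKY33 to MPK4, had 4.77 and 8.70 RPKM and overlaps a gene of the opposite strand.

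Reported WRKY target genes were partly higher in ago1-36, and a link to the WRKY levels was not tested. The list mixes directions of reported control, since WRKY33 activates camalexin synthesis whereas WRKY6 represses PHO1. ICS1 and PHT1;1, named above as genes activated by WRKY28 and WRKY45, were not listed. Of 19 genes on this list 13 were listed and kept. In ago1-36, 9 of them were at least 2-fold higher, 0 at least 2-fold lower and 2 lower by less. The shares of all kept genes past 2-fold were the same 19.6% and 8.38%. The median log2 ratio was 1.99, and also 1.99 with JAZ8 at the floor of 3 reads in wild-type. Of the 13, 3 (ACS2, FRK1 and JAZ8) passed the filter through their ago1-36 value alone and so had to be higher. RRTF1, a redox-responsive ERF factor reported to be bound by WRKY40, had 1.58 RPKM in the wild type against 217 RPKM in the mutant, 137-fold higher (counting interval 95.9 to 204), and shares 301 bases with the listed gene AT4G34412. The pathogenesis-related gene PR1, induced by salicylate, had 16 and about 498 reads, 31.3-fold higher (counting interval 19.1 to 55.2). JAZ8, a jasmonate repressor gene, had 0 and 82 reads. With the floor of 3 reads in wild-type JAZ8 was 27.5-fold higher, and the lower counting limit was 21.9-fold. Camalexin genes below WRKY33 had unlike values. PAD3, which performs the last step, had 7.49 and 32.8 RPKM and CYP71A12 had 4.81 and 39.8 RPKM, whereas CYP71A13 had 7.21 RPKM in the wild type against 4.28 RPKM in the mutant, from 161 and 95 reads. CYP71A13 shares 572 bases with the opposite-strand gene AT2G30766, which had about 2152 and 1701 reads and was lower as well, so the value of CYP71A13 is uncertain. PHO1, which WRKY6 represses, had 37.3 and 27.4 RPKM, a log2 ratio of -0.43. PAD3, CYP71A12, CYP71A13, PHO1, MPK4, MKS1 and the senescence gene ORE1 were picked out after their values had been seen.

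**Figure D5:**
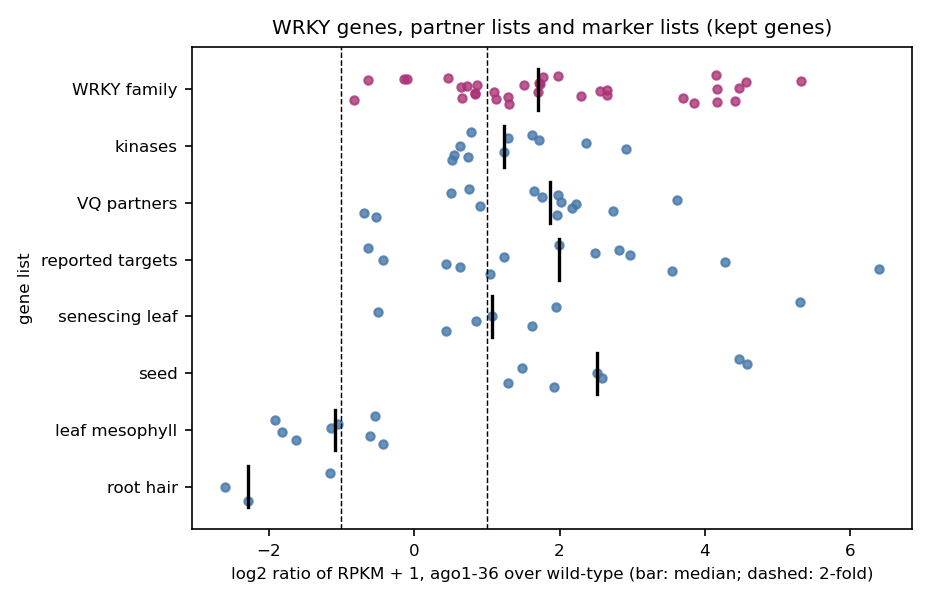
Log2 ratio of RPKM plus 1, ago1-36 over wild-type, of each kept gene of the WRKY family, of the kinase, VQ partner and reported target lists, and of the marker lists, with the median of each list as a bar and 2-fold as dashed lines. Medians of the WRKY, kinase, VQ and target lists lie between 1.23 and 1.99. Those of the seed and senescing leaf lists lie at 2.51 and 1.07, and those of the leaf mesophyll and root hair lists at -1.09 and -2.29. The seed median is 3.92 with genes at 0 in wild-type set at the floor of 3 reads.

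Markers of other tissue states moved between the same libraries, and their part in the WRKY differences was not tested. The counts past 2-fold stand beside 19.6% higher and 8.38% lower of all kept genes. Senescing leaf markers, relevant to WRKY53, WRKY6, WRKY22 and WRKY75, were at least 2-fold higher in 4 of 7 kept cases, with summed levels of 64.8 RPKM in the wild type against 234 RPKM in the mutant. SAG13 had 1.28 and 89.8 RPKM, SAG101 5.03 and 22.2 RPKM and SEN1 13.6 and 43.9 RPKM, while the senescence regulator ORE1 had 4.0 and 2.54 RPKM. Seed markers summed to 0.448 RPKM in wild-type, with 5 of 8 listed genes at 0, and to 68.7 RPKM in ago1-36. At least 2-fold higher were 7 of 7 kept seed genes, which passed the filter through their ago1-36 value alone and so had to be higher. The cruciferin genes CRC and CRA1 had 25.8 and 26.5 RPKM in ago1-36, and SESA2 had 5.0 RPKM. Leaf mesophyll markers were lower in ago1-36 for all 8 genes and at least 2-fold lower for 5, with RBCS2B at 1253 and 331 RPKM, LHCB1.2 at 888 and 251 RPKM and RCA at 11211 and 3618 RPKM. Root hair markers were at least 2-fold lower in 3 of 3 kept cases. PRP3 had 16.9 and 1.94 RPKM, LRX1 6.82 and 0.602 RPKM and EXPA7 4.39 and 1.42 RPKM. LRX1 passed the filter through its wild-type value alone and so had to be lower.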

How the data were processed

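Libraries were made from total RNA by SMART chemistry, per the labels' protocols, and the submitters' processing notes name TopHat2 2.0.11 and TAIR10. How reads were counted, with or without strand, is not given in the sources used here, so reads of overlapping genes cannot be told apart. The authors' deposited table holds, per the file headers, RPKM per gene in each library, a log2 fold change and a GFOLD score. Of 11957 gene lines, 291 repeats were dropped, leaving 11666 genes, and 2 fragment lines were not used. Whole reads were recovered from RPKM and the deposited log2 fold change. With a tolerance of 0.1, whole numbers were obtained for 2210 of 2210 genes of 1 to 100 reads. The share was 71.0% for genes of 100 to 300 reads and 15.6% for 300 to 1000 reads, so larger read numbers are estimates.

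The measure was log2 of RPKM plus 1, ago1-36 over wild-type, with a filter of 1 RPKM in at least 1 library and a call at 2-fold. No p-value was computed. Gene models and upstream sequences came from RefSeq TAIR10.1, where 11556 identifiers matched. Structural groups and gene lists follow general knowledge of the family. The members, lists and thresholds were chosen with earlier results of these data known. Values are printed for AGO1, all members, and the 3 genes of largest absolute ratio in each other list, with exceptions marked. Recovery and calling were also run on simulated libraries. These were built with the fold-change formula that the recovery assumes, so they cannot show that the deposited values follow it. Analyses used Python 3.11.15, pandas 2.3.3 and SciPy 1.17.1. Alternatives were pseudocounts of 0.1 and 0.5, other filters, median-of-ratios scaling, the deposited log2 fold change, its GFOLD score (added after seeing the data), and leaving out overlapping genes.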

Additional observations from a re-analysis of the deposited data

How the results depend on the processing

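No paired analysis was possible because each genotype had 1 library, and for the same reason no library could be left out. The count of WRKY members at least 2-fold higher in ago1-36 lay between 19 and 23 under all settings given with the family counts, and was lowest by the GFOLD score of the authors' deposited table, an alternative chosen after seeing the data. The count of members at least 2-fold lower went from 0 to 1 (WRKY14) with a pseudocount of 0.1 and to 2 (WRKY14 and WRKY44) by the deposited log2 fold change. On that scale the median of all kept genes was -0.23, against -0.04 here. The family median lay between 1.61 and 1.83 under the planned settings and was 1.34 on the GFOLD scale. No listed member changed direction with another pseudocount, after rescaling or by the deposited log2 fold change. Depth limits WRKY12, WRKY28, WRKY51, WRKY62 and WRKY75, with 11 or fewer reads in at least 1 library.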
